A study of Mus musculus with 4 samples.

Results

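The genes described here encode the part of mitochondrial fatty acid oxidation that follows the acyl-CoA dehydrogenases. They were taken by name: every probe set annotated to Hadha, Hadhb, Hadh, Echs1, Eci1, Decr1, Acaa2, Etfa, Etfb or Etfdh, under the current symbol or an older one. This gave 10 genes of 12393 named on the array, measured by 16 of 22626 probe sets, and all 16 probe sets lay above background on all 4 arrays. The 4 arrays were, in turn, PPARα-null mice given Wy14643, PPARα-null mice on control food (the control diet), wild-type mice given Wy14643 and wild-type mice on control food. Wy14643, a synthetic agonist of PPARα, was mixed in the food at 0.1% by weight for 5 days, and the control mice ate the food without it. All mice were males of 12 to 20 weeks. The PPARα-null mice were labelled 129S4/SvJae and the wild-type mice 129S1/SvImJ, so that genotype and substrain cannot be told apart. RNA was pooled within each group before hybridization to Affymetrix MOE430A arrays, with 1 array per group, and the sources give 5 mice per group in one place and pools of 4 to 5 mice in another. With 1 array per group there is no replicate error, no test over mice was possible, and every ratio below compares 2 pools.

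In β-oxidation, an acyl-CoA dehydrogenase first introduces a double bond and passes the electrons to the electron transfer flavoprotein, a heterodimer encoded by Etfa and Etfb. Its partner in the inner membrane, the oxidoreductase encoded by Etfdh, hands these electrons on to ubiquinone. An enoyl-CoA hydratase, a 3-hydroxyacyl-CoA dehydrogenase and a thiolase then complete the cycle. For long chains these reactions are carried out by the mitochondrial trifunctional protein (Hadha and Hadhb), and for shorter chains by separate matrix enzymes (Echs1, Hadh and Acaa2). Unsaturated fatty acids need auxiliary enzymes in addition, among them an enoyl-CoA isomerase (Eci1) and a 2,4-dienoyl-CoA reductase (Decr1). PPARα is a nuclear receptor that binds, with RXR, to direct repeats of a hexamer spaced by 1 base (DR1 elements), and the liver oxidizes fatty acids mainly in hepatocytes.

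Promoter windows of 8 of the 10 genes, from 250 bases before to 50 bases after the start site, were read from RefSeq (GRCm38.p6). Decr1 and Acaa2 were left out of this reading. Whether their promoters hold a match was therefore not tested, and the counts over the 8 genes do not describe the whole list. Hadha and Hadhb lie head to head on chromosome 5, with start sites 273 bases apart, and their windows share 228 bases. The Hadhb window is shown because both trifunctional protein genes start within or next to it, with the shared bases in capitals.
Hadhb promoter, chr5:30155003-30155302, plus strand: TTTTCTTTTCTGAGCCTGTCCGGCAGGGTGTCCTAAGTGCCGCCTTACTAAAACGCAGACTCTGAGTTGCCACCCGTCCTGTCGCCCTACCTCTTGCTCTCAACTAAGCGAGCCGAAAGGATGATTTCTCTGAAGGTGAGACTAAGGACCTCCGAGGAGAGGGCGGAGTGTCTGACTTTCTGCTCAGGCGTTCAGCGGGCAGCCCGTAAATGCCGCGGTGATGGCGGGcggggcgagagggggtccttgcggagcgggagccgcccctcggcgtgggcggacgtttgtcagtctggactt

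The windows were searched on both strands for AGGTCANAGGTCA, the DR1 consensus, with up to 3 mismatches at the 12 positions that are not N. A match of this kind was found in 4 of the 8 genes, and in 24.6% of all 32851 promoter windows of the table. Echs1 and Etfa, whose probe sets differed least between the arrays, had matches with 2 mismatches, a degree reached by 3.86% of all windows. Etfb and Hadh had matches with 3 mismatches. In Eci1, Etfdh, Hadha and Hadhb, the best alignment had 4 mismatches, and 79.8% of all windows hold one with 4 or fewer. A match describes the letters only, and elements outside the window were not searched. The paper's own in silico screen covered a wider region around each start site. Of the 10 genes described here, it examined only Etfdh and Etfb. It reported putative DR1-type elements for both, those of Etfdh very strong. The windows of Eci1 (the member with the largest ratios between the genotypes on either food), the 3 ETF genes and Echs1 are shown, with a match in capitals where one was found; that of Etfa and of Etfb reads on the opposite strand.
Eci1 promoter, chr17:24426433-24426732, plus strand: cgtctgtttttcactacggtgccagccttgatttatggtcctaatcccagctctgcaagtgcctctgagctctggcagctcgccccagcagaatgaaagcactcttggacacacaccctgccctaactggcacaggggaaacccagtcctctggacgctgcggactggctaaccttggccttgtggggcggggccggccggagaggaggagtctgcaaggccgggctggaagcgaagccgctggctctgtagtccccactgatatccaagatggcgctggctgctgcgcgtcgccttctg
Etfa promoter, chr9:55512194-55512493, minus strand: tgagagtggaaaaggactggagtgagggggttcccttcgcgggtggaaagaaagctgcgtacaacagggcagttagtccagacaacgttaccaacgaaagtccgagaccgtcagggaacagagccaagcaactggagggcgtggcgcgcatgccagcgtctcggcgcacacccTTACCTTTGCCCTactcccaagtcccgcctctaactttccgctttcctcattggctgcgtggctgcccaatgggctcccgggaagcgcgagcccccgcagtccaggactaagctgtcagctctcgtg
Etfb promoter, chr7:43443822-43444121, plus strand: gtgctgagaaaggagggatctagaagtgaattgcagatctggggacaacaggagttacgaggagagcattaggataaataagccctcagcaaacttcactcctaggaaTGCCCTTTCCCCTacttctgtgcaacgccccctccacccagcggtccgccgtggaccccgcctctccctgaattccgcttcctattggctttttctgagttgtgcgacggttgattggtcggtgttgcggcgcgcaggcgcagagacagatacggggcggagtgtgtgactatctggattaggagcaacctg
Etfdh promoter, chr3:79628718-79629017, minus strand: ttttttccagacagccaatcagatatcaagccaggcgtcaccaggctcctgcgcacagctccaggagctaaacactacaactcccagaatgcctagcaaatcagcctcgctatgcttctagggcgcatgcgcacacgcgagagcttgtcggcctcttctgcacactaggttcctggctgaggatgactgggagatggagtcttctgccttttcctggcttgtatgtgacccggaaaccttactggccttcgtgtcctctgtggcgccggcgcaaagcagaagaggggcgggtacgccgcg
Echs1 promoter, chr7:140116372-140116671, minus strand: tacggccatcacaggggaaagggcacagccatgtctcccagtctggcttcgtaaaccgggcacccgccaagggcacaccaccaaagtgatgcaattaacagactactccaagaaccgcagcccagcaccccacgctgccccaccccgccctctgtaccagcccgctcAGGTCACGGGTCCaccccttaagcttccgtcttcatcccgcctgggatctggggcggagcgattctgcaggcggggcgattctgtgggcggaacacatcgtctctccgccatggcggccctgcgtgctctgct

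Ppara itself had an intensity of 428 in PPARα-null livers on Wy14643 and 326 on control food, against 1250.1 and 847 in wild-type livers on the same diets. Signal above the background of 13.7 thus remained in both PPARα-null pools, and the position of the probe set relative to the deletion is not given in the sources used here. Median intensities lay between 14.2 and 14.6 on the 4 arrays. The 10 hepatocyte markers measured, such as Alb and Apoa1, were above background on all arrays, and their summed intensity was 83688 and 82065 in PPARα-null livers on Wy14643 and control food, against 78045.5 and 80680.5 in wild-type livers. Of 5 adipocyte and 6 striated muscle markers, 4 and 3 were below background on all arrays. The adipocyte gene Cidea reached 47.0 after Wy14643 in the wild type and was below background on the other arrays. Of the muscle genes above background, Acta1 had 29.4 in PPARα-null livers on Wy14643 and 11.9 on control food, against 20.6 and 35.5 in wild-type livers. Mb had 15.9 and 10.4 in PPARα-null livers, against 15.2 and 20.7 in wild-type livers, and Myh6 lay between 17.1 and 25.5 on all arrays. Acta1 and Mb were thus lower in PPARα-null livers on control food, by 2.99-fold and 1.98-fold, and higher after Wy14643 within that genotype. Their values in PPARα-null livers on control food (11.9 and 10.4) lay below the background of 13.7, so these ratios are taken to values below background. The part of such RNA in the ratios below was not tested.

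All 10 genes had their highest intensity in wild-type livers on Wy14643, as did all 16 of their probe sets. Among the 6391 genes above background on all arrays, this held for 38.0%. In 8 of the 10 genes, wild-type control livers came second, so that both wild-type pools exceeded both PPARα-null pools. This order was found for 15.8% of the 6391 genes. The exceptions were Hadh and Echs1, for which PPARα-null livers on Wy14643 stood between both wild-type pools.

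**Figure D1:**
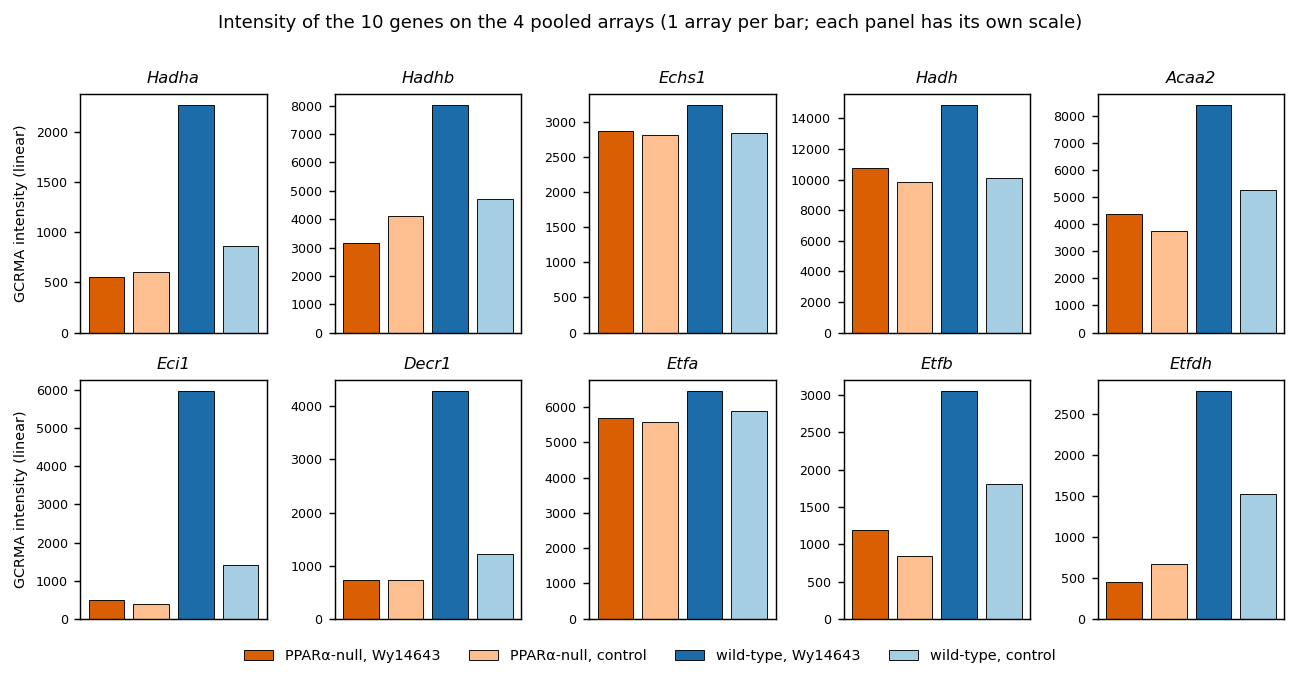
GCRMA intensity (linear scale from 0) of each of the 10 genes on the 4 arrays, 1 bar per array of pooled RNA; the brightest probe set of each gene is shown and scales differ between panels. The wild-type Wy14643 bar is the tallest in every panel, whereas the 4 bars of Echs1 and of Etfa are of nearly equal height.

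On Wy14643, 7 of the 10 genes were lower in PPARα-null livers than in the wild type by 1.5-fold or more, the fold threshold that the study applied to pooled arrays, and 0 were higher. Over all 7467 genes above background on at least 1 of these arrays, 17.0% were lower and 18.1% higher, and the median log2 ratio was 0.02 (SD over genes 0.99) against a median of -1.36 for the 10 genes. At 2-fold, 6 of the 10 genes were lower, against 8.54% of all genes. On control food, 4 of the 10 genes (Eci1, Decr1, Etfb and Etfdh) were lower in PPARα-null livers by that threshold (2.47% of 7165 genes) and 0 were higher (2.55%), with a median log2 ratio of -0.49 against 0.03 over all genes. There, 3 genes were lower by 2-fold or more, against 0.851% of all genes.

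Within wild-type livers, 7 of the 10 genes were higher after Wy14643 by 1.5-fold or more (15.4% of 7398 genes) and 0 were lower (16.4%). Their median log2 ratio was 0.76, against 0.02 over all genes. At 2-fold, 3 genes were higher, namely Hadha, Eci1 and Decr1, against 7.06% of all genes. Within PPARα-null livers, 0 genes were higher (2.35% of 7280 genes) and 1 was lower (4.53%), and the median was 0.03. The log2 ratios of all genes had an SD of 0.33 in that comparison, of 0.34 for the genotypes on control food and of 0.89 for Wy14643 in the wild type. Each array enters 2 of the 4 comparisons, so these are not independent of each other.

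**Figure D2:**
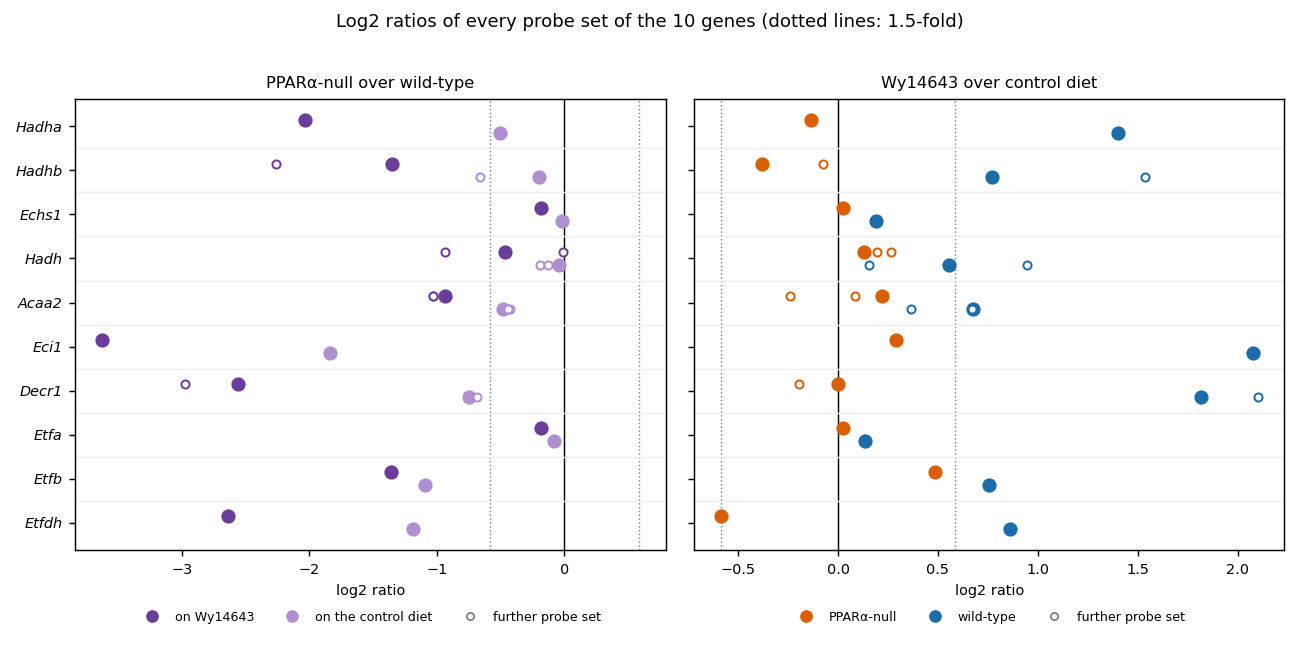
Log2 ratio of PPARα-null to wild-type livers on Wy14643 and on control food (left), and of Wy14643 to control food in PPARα-null and wild-type livers (right), for every probe set of the 10 genes; large filled circles are the brightest probe set, small open circles further probe sets, dotted lines 1.5-fold. Eci1 stands furthest to the left at -3.63, and Echs1 and Etfa stay within 0.20 of 0 in all comparisons.

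The trifunctional protein genes were lower in PPARα-null livers than in the wild type on Wy14643. Hadha encodes the α subunit, which carries the hydratase and the long-chain hydroxyacyl-CoA dehydrogenase. Its intensity was 553 in PPARα-null livers on Wy14643 and 607 on control food, against 2271 and 861 in wild-type livers. Both PPARα-null values thus lay below both wild-type values, with a 4.11-fold difference on Wy14643 and a 1.42-fold difference on control food. Wy14643 over control food was a log2 ratio of -0.13 in PPARα-null and 1.40 in wild-type livers.

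Hadhb encodes the β subunit, the long-chain thiolase of the complex. By its brighter probe set (1437172_x_at), the intensity was 3153 in PPARα-null livers on Wy14643 and 4108 on control food, against 8031 and 4704 in wild-type livers. By the other (1426522_at), it was 1031 and 1086 in PPARα-null livers, against 4963 and 1714 in wild-type livers. The arrays came in the same order with both, but the log2 ratio between the genotypes on Wy14643 was -1.35 with the brighter and -2.27 with the other probe set. The suffix of the brighter one marks probes that may match further transcripts. On control food, only the dimmer probe set passed 1.5-fold (1.58-fold lower in PPARα-null livers, against 1.15-fold). With the dimmer probe set, the ratios of Hadhb on Wy14643 (log2 -2.27) and for Wy14643 in wild-type livers (2.90-fold) lay close to those of Hadha (-2.04 and 2.64-fold). With the brighter probe set they lay further off (-1.35 and 1.71-fold). Common regulation of these neighbouring genes was not tested.

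Among the matrix enzymes for shorter chains, the hydratase gene Echs1 had an intensity of 2863 in PPARα-null livers on Wy14643 and 2814 on control food, against 3241 and 2844 in wild-type livers. The 4 arrays lay close together, and its largest ratio was 1.14-fold, for Wy14643 in wild-type livers. Of all genes tested, 36.2% had a larger increase in that comparison.

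Hadh, the dehydrogenase gene for medium and short chains, was measured by 3 probe sets that differed. The brightest (1455972_x_at) had an intensity of 10771 in PPARα-null livers on Wy14643 and 9859.7 on control food, against 14884 and 10119 in wild-type livers. The second (1460184_at) had 3072 and 2685 in PPARα-null livers, against 5894 and 3063 in wild-type livers. The third (1436756_x_at) had 1071 and 891 in PPARα-null livers, against 1081 and 971 in wild-type livers. On Wy14643, the genotypes therefore differed by a log2 ratio of -0.47, -0.94 or -0.01, of which only that of the second probe set is past 1.5-fold. Wy14643 over control in wild-type livers was 0.56, 0.94 or 0.15. Over 2236 genes with a pair of probe sets above background on all arrays, the median absolute difference between the brightest probe sets was 0.37 for the genotypes on Wy14643 and the 90th percentile 1.01. The difference of 0.92 between the probe sets of Hadhb lay below that percentile but above the 75th (0.66). The 3 probe sets of Hadh spanned 0.93, which is a range over 3 and not a difference within a pair. For the genotypes on control food, the probe sets of Hadhb differed by 0.463, past the 90th percentile of 0.446 there.

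Acaa2, the thiolase gene for medium chains, was measured by 3 probe sets that differed less on Wy14643. The brightest (1428146_s_at) had an intensity of 4393 in PPARα-null livers on Wy14643 and 3769 on control food, against 8417 and 5272 in wild-type livers. The second (1455061_a_at) had 3166 and 3738 in PPARα-null livers, against 6457 and 5014 in wild-type livers. The third (1428145_at) had 2908 and 2737, against 5928 and 3723. With each probe set both wild-type values exceeded both PPARα-null values, and the probe sets gave a 1.92-fold to 2.04-fold lower intensity in PPARα-null livers on Wy14643. On control food, the same probe sets gave log2 ratios of -0.48 to -0.42. Wy14643 over control in wild-type livers was 1.60-fold and 1.59-fold for the first and the third probe set and 1.29-fold for the second.

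The auxiliary enzymes showed the largest ratios of the oxidation steps. Eci1, which moves the double bond of unsaturated intermediates into the position that the hydratase accepts, had an intensity of 482 in PPARα-null livers on Wy14643 and 395 on control food, against 5968 and 1414 in wild-type livers. The PPARα-null pools lay far below either wild-type pool. Eci1 was 12.4-fold lower in PPARα-null livers on Wy14643, where 55 of 7467 genes were lower still, and 3.58-fold lower on control food, where 17 of 7165 genes were. Wy14643 over control food was 1.22-fold in PPARα-null and 4.22-fold in wild-type livers.

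Decr1 encodes the reductase that removes a second double bond. Its bright probe set had 725 in PPARα-null livers on either diet, against 4286 on Wy14643 and 1219 on control food in wild-type livers. The dim one had 17.98 on Wy14643 and 20.6 on control food in PPARα-null livers, against 142 and 33.1 in wild-type livers. The probe sets thus gave a 5.91-fold or 7.89-fold lower intensity in PPARα-null livers on Wy14643 and a 1.68-fold or 1.61-fold lower one on control food. Wy14643 over control food was 3.52-fold or 4.28-fold in wild-type livers, whereas the PPARα-null pools differed by log2 ratios of 0.00 and -0.20.

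The 3 genes of the electron transfer flavoprotein system differed from each other. Etfa, the α subunit, had an intensity of 5672 in PPARα-null livers on Wy14643 and 5568 on control food, against 6445 and 5878 in wild-type livers, and no ratio exceeded 1.14-fold. Etfb, the β subunit of the same heterodimer, had 1188 and 849 in PPARα-null livers, against 3055 and 1808 in wild-type livers. It was 2.57-fold lower in PPARα-null livers on Wy14643 and 2.13-fold lower on control food. Wy14643 over control food was 1.40-fold in PPARα-null and 1.69-fold in wild-type livers. The increase in PPARα-null livers was the largest among the 10 genes, though below 1.5-fold.

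Etfdh, the oxidoreductase, had an intensity of 446 in PPARα-null livers on Wy14643 and 669 on control food, against 2774 and 1526 in wild-type livers. It was 6.23-fold lower in PPARα-null livers on Wy14643 and 2.28-fold lower on control food. Wy14643 over control food was a log2 ratio of -0.59 in PPARα-null livers and 0.86 in wild-type livers, a lower and a higher intensity past 1.5-fold. The lower value in PPARα-null livers lies at the threshold and was between the thresholds after median centring (-0.54) and cyclic loess (-0.56) of the arrays. Each of the ETF genes was measured by 1 probe set only.

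The genes also differed in how much of the genotype difference was already present without the agonist. On the log2 scale, the control-food difference amounted to 80.0% of the difference on Wy14643 for Etfb, 51.6% for Acaa2, 50.7% for Eci1 and 45.1% for Etfdh. By its further probe sets Acaa2 stood at 41.2% and 43.2%, below Eci1 and Etfdh. The share was 29.2% for Decr1 (23.0% by its dim probe set), 24.7% for Hadha and 14.5% for Hadhb (29.1% by its dimmer probe set). The remainder equals, by arithmetic, the difference between the genotypes in the ratio of Wy14643 to control food, which was 1.81 for Decr1, 1.79 for Eci1, 1.53 for Hadha, 1.45 for Etfdh and 1.15 for Hadhb, but 0.45 for Acaa2, 0.43 for Hadh, 0.27 for Etfb, 0.16 for Echs1 and 0.11 for Etfa. Further probe sets gave 2.30 for Decr1, 1.61 for Hadhb, 0.60 and 0.58 for Acaa2, and 0.75 and -0.11 for Hadh, whose sign thus depends on the probe set. With 1 array per group this difference could not be tested.

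**Figure D3:**
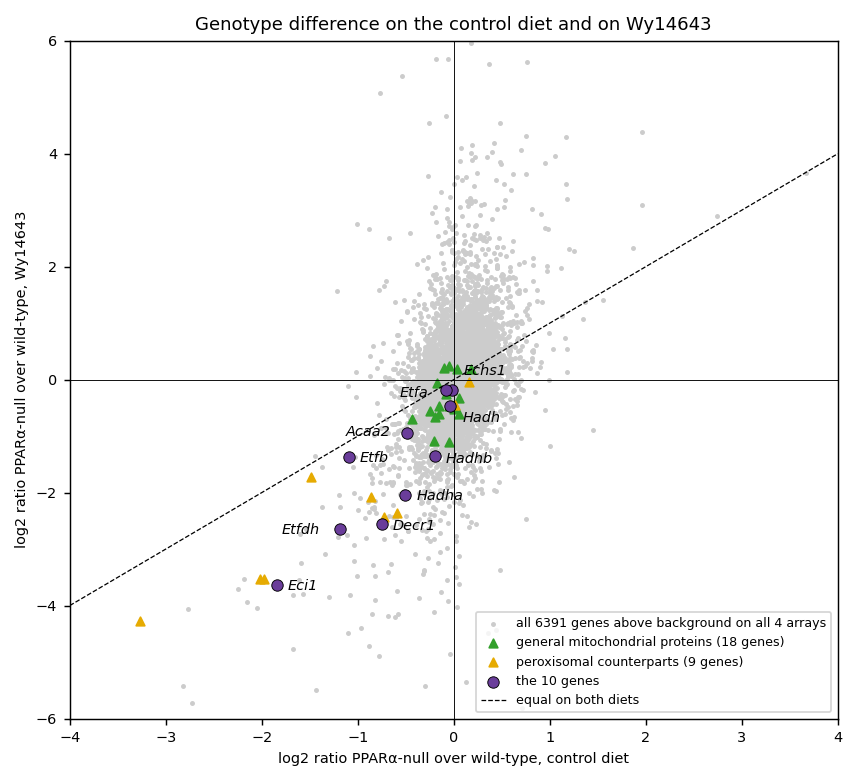
Log2 ratio of PPARα-null to wild-type livers on control food (horizontal) and on Wy14643 (vertical) for the 10 genes (labelled), peroxisomal counterparts and general mitochondrial proteins (triangles) and all 6391 genes above background on all arrays (grey, 8 outside the axes); the dashed line marks equal ratios. Etfb lies nearest the dashed line among the 7 genes past 1.5-fold on Wy14643, and Eci1 lies lowest of the 10 genes at -1.84 and -3.63.

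Adjacent steps of the pathway were counted from lists of genes known to act there. Over all genes, 17.0% were lower and 18.1% higher in PPARα-null livers on Wy14643. On control food, these shares were 2.47% and 2.55%. Of the 5 measured genes of carnitine-dependent entry, all 5 were lower by 1.5-fold or more in PPARα-null livers on Wy14643 and 3 on control food. The carnitine transporter gene Slc22a5 (log2 ratio -5.50), the carnitine acetyltransferase gene Crat (-5.43) and the carrier gene Slc25a20 (-4.06) had the largest ratios. In PPARα-null livers on Wy14643, Slc22a5 (23.1) and Crat (28.3) lay not far above the background of 13.7, so the size of their ratios is uncertain. These 5 entry genes were all higher by 1.5-fold or more after Wy14643 in wild-type livers, and 0 of them passed 1.5-fold in PPARα-null livers. Of 14 dehydrogenases that pass electrons to ETF, 6 were lower and 4 higher in PPARα-null livers on Wy14643, and 3 and 0 on control food. The fatty acid dehydrogenases Acadvl (-2.26) and Acadl (-2.25) were lower, and Sardh, which oxidizes sarcosine, was higher (2.24).

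Relatives of the 10 enzymes were counted next, and the same shares over all genes apply to these counts. Of 9 peroxisomal counterparts above background, some of which, as Eci2 and Ech1, are also known from mitochondria, 7 were lower in PPARα-null livers on Wy14643 and 0 higher, led by Decr2 (-4.28), Eci2 and Ech1 (-3.53 each). On control food, 8 of 10 were lower and 0 higher (median -0.79), against 4 of the 10 members (median -0.49). After Wy14643 within PPARα-null livers, 3 of 10 counterparts were higher and 1 lower. Of 8 further related enzymes, most of them mitochondrial hydratases, dehydrogenases and thiolases, 3 were lower and 2 higher in PPARα-null livers on Wy14643. Most of these act on amino acid intermediates or have less known substrates. Hsd17b10, a dehydrogenase of isoleucine breakdown, stood at -1.18, Echdc3 at 1.18 and the thiolase gene Acat1 at -0.98. Of 18 general mitochondrial proteins, 6 were lower and 0 higher in PPARα-null livers on Wy14643 (median -0.47), with the chaperonin gene Hspd1 at -1.10, the citrate synthase gene Cs at -1.09 and the import receptor gene Tomm70a at -0.69. On control food, 0 of these 18 passed 1.5-fold in either direction (median -0.07).

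The 5 genes outside the list with the profile over the 4 arrays closest to the mean profile of the 10 genes, by Euclidean distance of log2 values from wild-type control over 6381 genes, were the mitochondrial import gene Timm8a1 (distance 0.13), the peroxisomal transporter gene Abcd3 (0.14), Bpgm (0.17), Rab43 (0.18) and Rusc2 (0.20). The members themselves lay 0.45 (Acaa2 and Hadhb) to 1.93 (Eci1) from their own mean. With 4 arrays such likeness is a description.

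Markers of other liver cells differed between the arrays as well. Over all genes, 4.53% were at least 1.5-fold lower after Wy14643 in PPARα-null livers and 16.4% in wild-type livers. On Wy14643, 18.1% were higher and 17.0% lower in PPARα-null than in wild-type livers. In bulk RNA, fewer cells of a type and less RNA per cell cannot be told apart. Of 7 Kupffer cell markers above background, 7 were at least 1.5-fold lower on Wy14643 in PPARα-null and 6 in wild-type livers, and the summed intensity of all 10 was 610 on Wy14643 and 1208 on control food in PPARα-null livers, against 417 and 1025 in wild-type livers. Of 5 stellate cell markers above background, all 5 were higher in PPARα-null livers than in the wild type on Wy14643, with a summed intensity of all 8 of 2651 in PPARα-null and 1092 in wild-type livers. Of 5 sinusoidal endothelial markers above background, Kdr, Clec4g and Cdh5 were at least 1.5-fold lower after Wy14643 in PPARα-null livers and Clec4g alone in wild-type livers. Kdr (9.4) and Cdh5 (10.8) were then below background in PPARα-null livers. Stab2 and Lyve1 stayed between the thresholds, with log2 ratios of -0.06 and 0.14 in PPARα-null livers. The summed intensity of all 6 was 320 on Wy14643 and 562 on control food in PPARα-null livers, against 346 and 543 in wild-type livers. Clec4g was also 1.88-fold lower in PPARα-null than in wild-type livers on Wy14643, the direction of the 10 genes. It was the only endothelial marker past 1.5-fold there, and Stab2 (log2 ratio 0.43) and Lyve1 (0.37) were higher. The 4 endothelial markers above background in that comparison had a median log2 ratio of 0.02. Birc5 was lower there too, by 2.04-fold, among 3 markers of dividing cells above background. These 3 (Mki67, Cdk1 and Birc5) were higher after Wy14643 in wild-type livers. Each was above background on the wild-type Wy14643 array only (14.0, 15.8 and 21.1), so that these ratios are taken to values below background. The 5 markers of dividing cells summed to 50.7 on Wy14643 and 42.1 on control food in PPARα-null livers, against 69.8 and 45.5 in wild-type livers. Of 4 neutrophil genes measured, S100a8 and S100a9 were at 106 and 105 in PPARα-null livers on Wy14643 and between 12.9 and 17.6 on the other arrays. Camp was below background on all arrays, and Ltf was above it in PPARα-null livers on Wy14643 only, at 14.1. Among hepatocyte markers, Cps1, Tat and Asgr1 (3 of 10) were at least 1.5-fold higher and 0 lower in PPARα-null livers on Wy14643, opposite to the direction of the 10 genes. The part of these cells in the ratios above was not tested.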

How the data were processed

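The deposited values were GCRMA intensities on the linear scale, which the authors computed per probe set from Affymetrix MOE430A scans by background correction, quantile normalization between arrays and summary of probes; the submitters' processing notes give GCRMA 2.20. Which arrays were normalized together is not given in the sources used here. Quantile normalization gives all arrays nearly one distribution, so that a shift shared by most genes is lost. Of 22690 probe sets, 64 controls were left out. Probe sets were named from the platform annotation, updated through gene identifiers of RefSeq (GRCm38.p6): 20380 had 1 symbol, 691 several and 1555 none, and only those with 1 symbol were named. The probe set with the highest mean stood for a gene, and every probe set of a member was reported. Ratios were taken on the log2 scale, and 1.5-fold, which the study applied to pooled arrays, counted as higher or lower. Background was set at 13.7, below which 90% of 66 probe sets for 40 genes silent in liver lay; shares over all genes refer to genes above it on at least 1 of the arrays compared. Groups were taken from the titles, since 1 description, that of wild-type livers given Wy14643, carries the text of the control. The number of pooled mice is not given alike in all parts of the sources. All 10 members, up to 3 genes with the largest ratio per pathway list and the 5 nearest profiles were named; the members and lists were chosen with earlier results of these data known, and single markers were named after their values were seen. The ratio calculation was checked on simulated arrays with known changes. Alternatives were another probe set per gene, the median of probe sets, 32 added on the linear scale, a floor at background, median centring, cyclic loess, leaving out probe sets of doubtful specificity, a filter on dim probe sets and a 2-fold threshold. Python 3.11.15, numpy 2.4.6, pandas 2.3.3, matplotlib 3.10.9 and R 4.3.3 with limma 3.58.1 were used.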

Additional observations from a re-analysis of the deposited data

Results flagged for a closer look

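Hadhb and Etfdh were marked because Wy14643 went with a lower intensity in PPARα-null livers and a higher one in wild-type livers, each by more than 0.33, the SD of the log2 ratios between the PPARα-null arrays over all genes. For Hadhb, the response in wild-type minus that in PPARα-null livers was 1.15 on the log2 scale by its brighter probe set and 1.61 by the dimmer one. By the dimmer probe set the PPARα-null ratio was -0.07, so that the opposite direction rests on the brighter one. For Etfdh, the difference was 1.45, from ratios of -0.59 in PPARα-null livers and 0.86 in wild-type livers. With 1 array per group, neither difference was tested.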

How the results depend on the processing

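No direction of a ratio past 1.5-fold turned under any of the 8 alternatives applied to the 10 genes, and 383 of 400 recomputed gene values moved by less than 0.33 on the log2 scale. Many of these values could not move. All 16 probe sets lay above background on all arrays, so the floor and the filter on dim probe sets changed nothing. Only 4 of the 10 genes had several probe sets, so the choice of probe set could change those alone. The share is therefore no measure of robustness. The 17 values that moved further did so only through the choice of probe set, 9 of them with the second brightest. With the second brightest probe set, or without probe sets of doubtful specificity, the median log2 ratio of PPARα-null to wild-type mice on Wy14643 was -1.70 in place of -1.36; Hadh then passed 1.5-fold in that comparison and in wild-type mice given Wy14643, and Hadhb on the control diet. Acaa2 lost the 1.5-fold difference in wild-type mice with its second brightest probe set (0.36). At 2-fold, 3 in place of 7 genes were higher on Wy14643 in wild-type mice. The single gene lower on Wy14643 in PPARα-null mice, Etfdh, was lost (0 genes) with 32 added, with median centring, with cyclic loess and at 2-fold. Centring moved the median of all genes by -0.05 to 0.05. No paired analysis was possible because each group has 1 array. The number of arrays limits the precision, the probe sets of 1 gene differed by up to 0.93 on the log2 scale, and the dim probe set of Decr1 lay at 17.98 on 1 array, close to the background of 13.7.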
